A study of Homo sapiens with 6 samples.

Results

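The AP-1 transcription factor subunits and their relatives ATF3 and JDP2 were measured in HK-2 cells, an immortalized line of human proximal tubular epithelial cells, with and without TGF-β1. The 9 genes were chosen by name: the 3 members of the JUN family (JUN, JUNB and JUND), the 4 members of the FOS family (FOS, FOSB, FOSL1 and FOSL2), and the repressors ATF3 and JDP2. All 9 were found among 41497 named gene entries, each with a row on a primary chromosome, and all 9 passed the filter on low counts. JUNB and FOSB rose strongly after TGF-β1 and FOS, the least abundant FOS family gene, rose less. FOSL1, JUND, ATF3, JDP2 and, by the smallest amount, FOSL2 fell. JUN was not called.

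Both groups were wild-type cells collected at 24 hours. The 3 control libraries came from untreated cells and the 3 TGF-β1 libraries from cells exposed to the cytokine. Per the labels the cells were kept in medium with fetal bovine serum, whereas the study's methods describe TGF-β treatment in serum-free medium. For the control cells, the sources used here do not give the serum condition at collection. Serum itself induces several of these genes, so serum and TGF-β1 cannot be told apart if it differed between the groups. Nor do the labels say that replicates were separate cultures, so the p-values measure the spread between these libraries only. The study used the libraries to find transcription regulators that respond to TGF-β.

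AP-1 is not a single protein but a family of dimers. Each subunit carries a basic region that touches DNA and a leucine zipper that holds the partner. JUN proteins pair with each other or with FOS proteins, whereas FOS proteins need a JUN partner, and the dimers bind the TRE sequence TGACTCA and, with ATF and CREB partners, the CRE sequence TGACGTCA. FOS, FOSB, JUN and JUNB are immediate early genes, whose mRNA rises quickly and usually briefly after growth factors, serum or stress. In TGF-β signaling AP-1 works beside the SMAD proteins on many matrix and protease genes, and JUNB is a well-known early target of the pathway.

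Total counts per library were 21.9 to 26.9 M (megacounts). Levels are given as CPM, the counts of a gene per megacount of the TMM-scaled library. COL1A1, a collagen gene and standard TGF-β target, rose from 24.0 ± 0.366 to 236 ± 8.37 CPM (SD, n = 3). TGF-β1 replicate 1 stood apart from the other libraries of its group. Its counts differed from those of the other TGF-β1 libraries by a chi-square of 16.9 to 18.2 per gene, against 4.33 to 5.93 for the other pairs within a group. It was the highest of its group for 8 of the 9 genes and the lowest for FOSL2, and each of the 9 is also given without it. Of 11 proximal tubule markers only GGT1, PAX8 and AQP1 reached 1 CPM over the libraries, LRP2 and SLC22A6 had no read, and the summed level of the list was 309 to 343 CPM in control and 193 to 225 CPM after TGF-β1. Its members went both ways. PAX8 and GGT1 were called lower (-0.73 and -0.58 on the log2 scale), and the low AQP1 and CUBN were called higher (2.10 and 0.82). Of 6 epithelial markers 5 reached 1 CPM, with sums of 841 to 899 CPM in control and 1206 to 1383 CPM after TGF-β1, and CDH1 had 0 to 3 reads per library. KRT7, KRT8 and KRT18 were called higher (2.35, 0.65 and 0.58) and KRT19 and EPCAM lower (-1.34 and -1.25). Among other cell types, 3 of 7 fibroblast and pericyte markers (sums 65.7 to 75.7 and 61.5 to 63.1 CPM), 1 of 5 leukocyte markers (CD68, sums 92.3 to 102.1 and 61.0 to 84.6 CPM), 1 of 3 podocyte markers (SYNPO, sums 51.8 to 57.1 and 32.9 to 33.7 CPM) and 0 of 5 endothelial markers (sums 0.899 to 1.60 and 0 to 0.143 CPM) reached it. Within the fibroblast and pericyte list, LUM, which holds most of the sum, RGS5 and THY1 were called lower (-0.28, -0.35 and -1.72), whereas PDGFRB was called higher, from 0.551 ± 0.0938 to 5.79 ± 0.429 CPM (SD, n = 3). PTPRC, the defining leukocyte gene, had 0 to 2 reads per library. The part of these shifts in the results was not tested. In bulk RNA, fewer cells that express a gene and less RNA per cell cannot be told apart.

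The promoters of 5 genes are shown because their mRNA went in different directions: JUNB, FOSB and FOS rose, JUN was not called and JUND fell. Each is the 250 bases before the RefSeq start of the gene (GRCh38.p14), written 5′ to 3′ on the strand of the gene. Capitals mark TGACG or its reverse CGTCA (the short CRE motif), the full CRE TGACGTCA, the JUN-type site TGACATCA and the TATA sequence TATAAA. The windows are chr19:12791236-12791485 (JUNB, plus strand), chr19:45467746-45467995 (FOSB, plus strand), chr14:75278578-75278827 (FOS, plus strand), chr1:58784048-58784297 (JUN, minus strand) and chr19:18281623-18281872 (JUND, minus strand).
JUNB: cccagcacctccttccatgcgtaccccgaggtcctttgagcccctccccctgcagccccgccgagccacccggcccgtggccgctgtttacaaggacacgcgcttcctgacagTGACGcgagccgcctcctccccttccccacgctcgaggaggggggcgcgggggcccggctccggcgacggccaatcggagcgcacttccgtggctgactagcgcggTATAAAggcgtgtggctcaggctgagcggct
FOSB: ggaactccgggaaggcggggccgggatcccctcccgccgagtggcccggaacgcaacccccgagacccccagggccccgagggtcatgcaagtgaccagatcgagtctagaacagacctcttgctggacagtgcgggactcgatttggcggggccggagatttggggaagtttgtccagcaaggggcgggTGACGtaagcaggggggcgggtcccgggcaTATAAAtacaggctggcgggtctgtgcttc
FOS: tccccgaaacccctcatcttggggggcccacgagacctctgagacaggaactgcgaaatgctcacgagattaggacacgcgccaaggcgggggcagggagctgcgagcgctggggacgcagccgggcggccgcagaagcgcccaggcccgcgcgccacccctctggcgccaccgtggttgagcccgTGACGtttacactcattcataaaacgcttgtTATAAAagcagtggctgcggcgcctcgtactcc
JUN: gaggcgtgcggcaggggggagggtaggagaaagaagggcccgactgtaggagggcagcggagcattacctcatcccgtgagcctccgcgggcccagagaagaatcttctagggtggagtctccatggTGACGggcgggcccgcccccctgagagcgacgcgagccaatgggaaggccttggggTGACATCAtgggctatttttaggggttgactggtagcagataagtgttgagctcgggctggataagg
JUND: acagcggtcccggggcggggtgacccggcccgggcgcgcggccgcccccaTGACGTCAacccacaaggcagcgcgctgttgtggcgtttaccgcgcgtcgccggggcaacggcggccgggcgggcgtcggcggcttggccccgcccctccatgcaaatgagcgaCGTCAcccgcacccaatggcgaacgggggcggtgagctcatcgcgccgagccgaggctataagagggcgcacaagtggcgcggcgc
The motifs were searched on both strands in windows of 300 bases, 250 before and 50 after the start, with TATAAA searched on the strand of the gene only. Each match includes those inside longer motifs, so a TGACGTCA also counts as TGACG. Windows were given for 8 of the 9 genes, 11 windows in all, and for 35116 promoters of all genes. FOSL1 had no window and is in none of the counts that follow.

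A TATAAA lay 31 bases before the start of JUNB, 30 bases before that of FOSB and 33 bases before that of FOS. It was present in 7.33% of all promoter windows. None of the JUN, JUND, FOSL2 and JDP2 windows had these letters, and ATF3 had them 230 bases before the start of 1 of its windows. The short CRE motif TGACG was more widespread. It lay 137 bases before the start in JUNB, 60 in FOSB, 64 in FOS, 123 in JUN and 97 in 1 window of JDP2. FOSL2 had it at 201 and 66 bases, and 24.6% of all windows held it. JUND had the full TGACGTCA 200 bases before its start and a further CGTCA at 86 bases. The full CRE was found in 1.85% of all windows. The JUN-type site TGACATCA lay 67 bases before the start of JUN and 123 bases before that of ATF3, against 2.61% of all windows. The TRE itself, TGACTCA, lay 4 bases after the start of FOSL2 and in none of the other windows of these genes. It was in 4.95% of all windows. The short SMAD-binding letters GTCT were in any window of 6 of the 8 genes and in 84.0% of all windows. CAGAC was in any window of 4 of the 8 genes and in 45.3% of all windows. A gene with several windows had more chances of a match than a single window. Neither JUNB nor JUND had either of them in this window. These matches describe letters and were not tested for binding.

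The groups were compared by the edgeR quasi-likelihood F test, which is two-sided, with Benjamini-Hochberg adjustment over the 14860 genes tested. A gene is called at an adjusted p under 0.05. Of the 9 genes, 8 were called, 3 higher and 5 lower. Over all genes tested 44.3% were called, 22.2% higher and 22.1% lower. At least 2-fold changes were less common, and 3 of the 9 genes had one, JUNB and FOSB higher and FOSL1 lower, against 9.06% of all genes tested (3.68% higher and 5.38% lower). The CPM values of the groups did not overlap for 8 of the 9 genes and for 55.6% of all genes tested. The median log2 fold change of the 9 genes was -0.27, and that of all genes was 0.01. Scaling by total counts only moved the median of all genes by -0.11 on the log2 scale, and no call among the 9 genes changed with it.

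**Figure D1:**
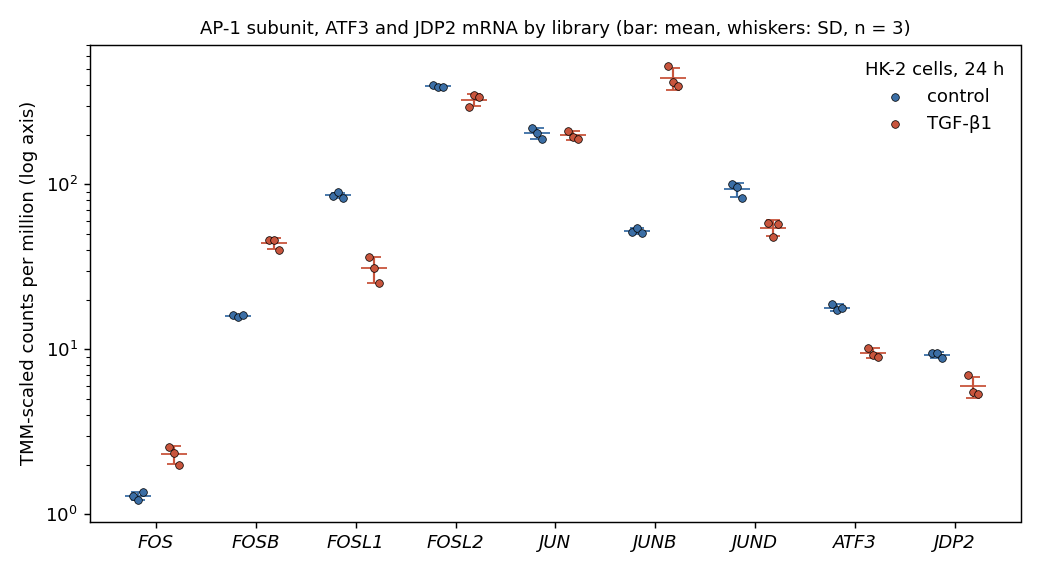
Level of each gene in each library, as TMM-scaled CPM on a log axis, with control in blue and TGF-β1 in red. Points are libraries, bars are means and whiskers are SD (n = 3). The groups are apart for every gene but JUN, and the widest gap is that of JUNB, from 50.5 to 54.4 CPM in control and from 392 to 518 CPM after TGF-β1. Heights of different genes are not corrected for gene length.

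JUN family genes encode the subunits that every AP-1 dimer needs. JUNB (gene-JUNB, chr19:12791486-12793315, plus strand, GRCh38) is an intronless gene whose protein restrains proliferation in many cells and pairs well with FOS proteins. It had 51.4, 54.4 and 50.5 CPM in the control libraries and 518, 415 and 392 CPM in the TGF-β1 libraries. Every TGF-β1 library was far above every control library, and the first TGF-β1 library was the highest. Its level rose from 52.1 ± 2.06 to 442 ± 67.2 CPM (SD, n = 3), 8.48-fold. The log2 fold change was 3.08 ± 0.11 (SE), with a 95% interval from 2.84 to 3.33 and an edgeR adjusted p of 4.2e-08. It was rank 79 among the rises of all genes tested. Without TGF-β1 replicate 1 the log2 fold change was 2.94. In reads, the gene had 3676 in control and 31739 after TGF-β1, so counting error was small.

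JUN (gene-JUN, chr1:58780791-58784047, minus strand) encodes c-Jun, the founding subunit and the main substrate of the JNK kinases. It had 219, 205 and 187 CPM in control and 211, 194 and 188 CPM after TGF-β1. The groups overlapped across nearly their whole range. Its log2 fold change was -0.04 ± 0.07 (SE), with a 95% interval from -0.20 to 0.11 and an edgeR adjusted p of 0.655, so a change in mRNA of the size seen for JUNB or JUND lay outside the interval. The sign of this small difference turned when control replicate 1 was left out (0.016), and without TGF-β1 replicate 1 it was -0.10. Phosphorylation, by which JUN is mainly activated, is not measured by RNA-seq.

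JUND (gene-JUND, chr19:18279694-18281622, minus strand) encodes the subunit that is most steadily present in resting cells. It had 100.4, 95.8 and 82.8 CPM in control and 58.4, 47.9 and 57.3 CPM after TGF-β1. All TGF-β1 libraries were below all control libraries. Its level fell from 93.0 ± 9.13 to 54.5 ± 5.81 CPM (SD, n = 3), 1.71-fold (log2 fold change -0.77 ± 0.09, SE; adjusted p 8.9e-05 by edgeR). Without TGF-β1 replicate 1 the log2 fold change was -0.84.

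FOS family genes encode the subunits that pair with JUN proteins. FOSB (gene-FOSB, chr19:45467996-45475179, plus strand) encodes FosB and, by alternative splicing, the truncated and stable ΔFosB, which the gene counts do not separate. It had 16.0, 15.8 and 16.2 CPM in control and 46.1, 46.0 and 40.1 CPM after TGF-β1. The control libraries were nearly equal, and all TGF-β1 libraries were above them. Its level rose from 16.0 ± 0.210 to 44.1 ± 3.48 CPM (SD, n = 3), 2.76-fold. The log2 fold change was 1.46 ± 0.07 (SE; edgeR adjusted p 5.7e-08) and 1.42 without TGF-β1 replicate 1.

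FOS (gene-FOS, chr14:75278828-75282230, plus strand) encodes c-Fos, the classic immediate early protein. It had few reads, with 29, 30 and 32 reads in the control libraries and 67, 57 and 42 reads in the TGF-β1 libraries. The control libraries had 1.28, 1.23 and 1.36 CPM, and the TGF-β1 libraries 2.57, 2.36 and 2.01 CPM. The groups did not overlap. The log2 fold change was 0.84 ± 0.18 (SE), with a 95% interval from 0.44 to 1.25 and an edgeR adjusted p of 0.00347. This interval was the widest among the 9 genes. Without TGF-β1 replicate 1 it was 0.74.

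FOSL1 (gene-FOSL1, chr11:65892049-65900545, minus strand) encodes Fra-1, a subunit tied to migration and invasion in epithelial cells. It had 85.2, 89.2 and 83.0 CPM in control and 36.2, 31.2 and 25.3 CPM after TGF-β1. The TGF-β1 libraries were all below the control libraries but spread more widely among themselves. Its level fell from 85.8 ± 3.16 to 30.9 ± 5.49 CPM (SD, n = 3), 2.77-fold. The log2 fold change was -1.47 ± 0.11 (SE; edgeR adjusted p 9.4e-06), the largest fall among the 9 genes, and -1.61 without TGF-β1 replicate 1. The SD of its log2 CPM was 0.26 within TGF-β1 and 0.05 within control.

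FOSL2 (gene-FOSL2, chr2:28392855-28417317, plus strand) encodes Fra-2, which is linked to fibrosis in mouse models. It had 401, 388 and 386 CPM in control and 294, 347 and 335 CPM after TGF-β1. The groups did not overlap, but the distance between them was small beside those of the other called genes. The log2 fold change was -0.27 ± 0.07 (SE; edgeR adjusted p 0.00728) and -0.21 without TGF-β1 replicate 1, the library with the lowest value.

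ATF3 and JDP2 encode small relatives of the FOS proteins that often act as repressors on AP-1 and CRE sites. ATF3 (gene-ATF3, chr1:212565407-212620777, plus strand) is a stress-response gene that is induced in injured tubules. It had 18.8, 17.2 and 17.7 CPM in control and 10.3, 9.26 and 9.02 CPM after TGF-β1. All TGF-β1 libraries were lower than all control libraries. Its level fell from 17.9 ± 0.792 to 9.51 ± 0.652 CPM (SD, n = 3), 1.88-fold lower (log2 fold change -0.91 ± 0.08, SE; adjusted p 6.6e-06 by edgeR). It was -0.98 without TGF-β1 replicate 1.

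JDP2 (gene-JDP2, chr14:75426692-75474107, plus strand), which encodes the Jun dimerization protein 2, had 9.44, 9.48 and 8.82 CPM in control and 6.95, 5.54 and 5.40 CPM after TGF-β1. The groups did not overlap, and the first TGF-β1 library was the highest of its group. It was 1.55-fold lower after TGF-β1 (log2 fold change -0.63 ± 0.12, SE; adjusted p 0.00154 by edgeR), and -0.77 without TGF-β1 replicate 1. JDP2 starts 144462 bases after the end of FOS on the same strand of chromosome 14. The neighbors went in opposite directions.

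**Figure D2:**
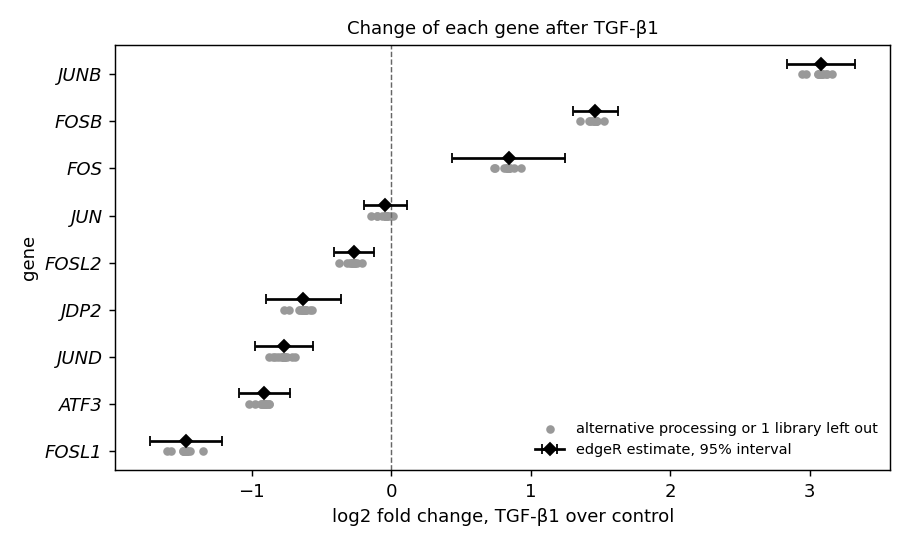
Log2 fold change of each gene, TGF-β1 over control, with the edgeR estimate as a black diamond and its 95% interval as whiskers. Gray points are the values under other processing and with 1 library left out. JUNB (3.08), FOSB (1.46) and FOS (0.84) lie above 0 in every case, JUN (-0.04) lies at 0, and FOSL2, JDP2, JUND, ATF3 and FOSL1 (-0.27 to -1.47) lie below 0 in every case.

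Levels of different genes were compared in the deposited TPM, a gene-level scale that is corrected for gene length and for the size of the library. It carries no TMM scaling, so differences between groups in TPM depart somewhat from those in CPM. The order and the family shares rest on the listed gene lengths, from 1830 bases for JUNB to 12624 bases for JDP2. Which isoforms were expressed was not examined. In control cells the order was JUN (208 TPM), JUND (160.3 TPM), FOSL1 (154 TPM), FOSL2 (148 TPM), JUNB (94.7 TPM), ATF3 (16.2 TPM), FOSB (14.1 TPM), JDP2 (2.44 TPM) and FOS (2.04 TPM). Of the neighbors in this order, JUND and FOSL1 overlapped in their ranges over the libraries and the others did not. After TGF-β1 the order was JUNB (738 TPM), JUN (186 TPM), FOSL2 (114 TPM), JUND (86.6 TPM), FOSL1 (50.9 TPM), FOSB (35.8 TPM), ATF3 (7.92 TPM), FOS (3.36 TPM) and JDP2 (1.44 TPM). No neighbors overlapped there. JUNB thus went from the fifth to the first place, and no other gene moved up by as many places.

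The makeup of each family differed between the groups. JUNB was 19.0, 20.9 and 21.6% of JUN family TPM in the control libraries and 74.9, 72.9 and 71.0% in the TGF-β1 libraries. The share of JUN went from 44.9 ± 0.722% to 18.5 ± 1.16% (SD, n = 3) and that of JUND from 34.6 ± 0.890% to 8.61 ± 1.08%. The JUN family sum was 463 ± 25.9 TPM without TGF-β1 and 1011 ± 99.4 TPM with it, a ratio of 2.18. Without TGF-β1 replicate 1 the share of JUNB after TGF-β1 was 71.9%. The level of JUN itself was 208 TPM in control and 186 TPM after TGF-β1. Its groups did not overlap in TPM (195 to 220 against 179 to 193), unlike in TMM-scaled CPM, where JUN was not called.

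The FOS family sum went the other way, from 318 ± 3.61 to 204 ± 12.5 TPM (SD, n = 3), a ratio of 0.640. In control cells FOSL1 and FOSL2 held nearly all of it, with 48.3 ± 1.07% and 46.6 ± 0.941%. After TGF-β1 the share of FOSL1 was 25.0 ± 4.03%, that of FOSL2 55.8 ± 5.03% and that of FOSB 17.6 ± 0.831%, against 4.43 ± 0.139% for FOSB in control. Without TGF-β1 replicate 1 these shares were 22.8%, 58.5% and 17.1%. FOS held 1.65 ± 0.173% after TGF-β1, so its rise changed the family sum little. The ratio of FOSL1 to FOSB was 10.8, 11.5 and 10.4 in the control libraries and 1.60, 1.38 and 1.28 in the TGF-β1 libraries. These shares and ratios are of mRNA and were described without a test.

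Across both families together, the sum was 781 ± 26.2 TPM in control and 1215 ± 96.6 TPM after TGF-β1. JUNB made up 12.1 ± 0.526% of it in control and 60.6 ± 2.67% after TGF-β1. The ratio of JUNB to JUN went from 0.457 ± 0.0345 to 3.96 ± 0.356 and that of JUNB to JUND from 0.593 ± 0.0513 to 8.57 ± 1.18. The repressor genes ATF3 and JDP2 together had 18.6 ± 0.543 TPM in control and 9.37 ± 0.503 TPM after TGF-β1, with ATF3 the larger part in every library.

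**Figure D3:**
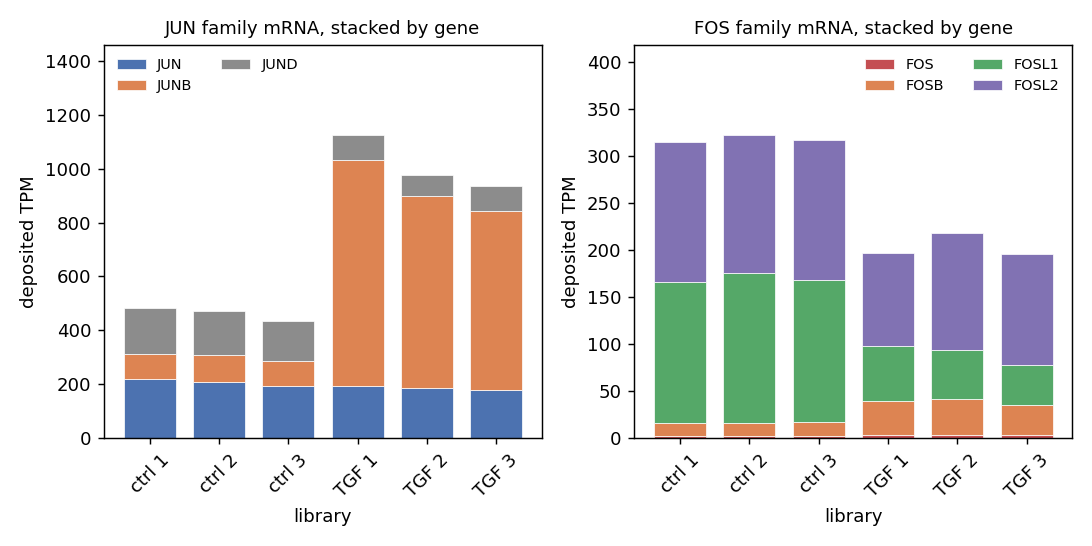
Deposited TPM of the JUN family (left) and the FOS family (right) in each library, stacked by gene, with control (ctrl) and TGF-β1 (TGF) replicates 1 to 3 and separate vertical scales. The JUN family bars are 434 to 483 TPM in control and 934 to 1123 TPM after TGF-β1, mostly JUNB. The FOS family bars are 315 to 322 TPM in control and 196 to 218 TPM after TGF-β1, with less FOSL1 and more FOSB.

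Other basic leucine zipper genes that can pair with AP-1 subunits were also examined. Of 12 tested genes of this list, 2 were called higher, 3 lower and 7 not, which is 41.7% called, and the median log2 fold change was 0.02. The share over all genes tested, to be set beside this list and those that follow, was 44.3%. The named changes were NFE2L3 (-0.65), MAFK (0.41), BACH1 (-0.36) and MAF (0.30), and the call of MAF was lost under total counts (edgeR adjusted p 0.0589). ATF2, the usual partner of JUN on CRE sites, had 80.4 ± 4.05 CPM in control and 85.2 ± 4.49 CPM after TGF-β1 and was not called (log2 fold change 0.08, edgeR adjusted p 0.298).

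Of 16 tested CREB and stress-response zipper genes, 7 were called higher, 3 lower and 6 not (62.5%; median 0.07). The falls were the larger changes. CEBPD, an acute-phase regulator, fell from 57.4 ± 3.87 to 13.6 ± 2.82 CPM (SD, n = 3), or by 2.07 ± 0.13 (SE) on the log2 scale. CEBPA fell by 1.60 and CREB5 by 1.29 on the log2 scale, while CREB3L1, which drives collagen secretion, rose by 0.94.

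Genes of the integrated stress response and genes linked to ATF3 were examined because ATF3 is a target of ATF4. Of 13 tested, 2 were called higher, 3 lower and 8 not (38.5%; median -0.18). GDF15, a stress cytokine, fell from 62.5 ± 5.06 to 10.5 ± 1.73 CPM (SD, n = 3). On the log2 scale its difference was -2.56 ± 0.11 (SE; adjusted p 4.9e-08 by edgeR). DDIT4 fell by 0.53 on the log2 scale. The chaperone gene HSPA5 and the ER stress gene HERPUD1 went the other way, at 0.69 and 0.74. ATF4 and DDIT3 themselves were not called (0.06 and 0.07), nor was ID1 (-0.07), a gene that ATF3 represses together with SMAD3 in epithelial cells. The number called lower was 7 without TGF-β1 replicate 1.

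Upstream of AP-1, the MAP kinase genes had 7 called higher, 7 lower and 9 not called of 23 tested (60.9%; median -0.04). Over all genes tested, 22.2% were called higher and 22.1% lower. MAP3K1, an activator of the JNK pathway, fell from 154 ± 3.46 to 34.4 ± 6.19 CPM (SD, n = 3). On the log2 scale this is -2.17 ± 0.12 (SE; adjusted p 1.6e-06 by edgeR). MAP3K5, which encodes the stress kinase ASK1, fell from 102.5 ± 3.82 to 27.5 ± 2.04 CPM, with -1.90 ± 0.07. MAPK12 fell by 0.88 and MAPK10 by 0.68 on the log2 scale. MAPK8, which encodes JNK1 and acts directly on JUN, was not called (0.08), while MAPK9, which encodes JNK2, was called higher (0.29; edgeR adjusted p 0.000889). The rises were small. The number called higher was 2 with scaling by total counts only and 4 without control replicate 3.

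Transcription factors that act on the FOS and JUN promoters were called higher in 5 of 9 cases and lower in none (55.6%; median 0.31). ELK3 rose by 0.62, MRTFA by 0.55, MEF2D by 0.53 and SRF, which binds the serum response element of FOS, by 0.31 on the log2 scale. Without TGF-β1 replicate 1 another 1 of the 9 was called lower, and without TGF-β1 replicate 2 another 2. Genes of the turnover of AP-1 mRNA and protein had 4 called higher and 9 not called of 13 tested (30.8%; median 0.11). TRIB1, a scaffold of the COP1 ubiquitin ligase, rose from 37.3 ± 2.64 to 64.2 ± 0.881 CPM (SD, n = 3), with 0.78 ± 0.06 (SE; edgeR adjusted p 3.0e-06). The other calls of this list were less stable. TRIB2 (0.69) was not called by DESeq2 (0.69; adjusted p 0.0873), nor without control replicate 3 (0.63) or TGF-β1 replicate 1 (0.53). ZFP36L1 (0.20) was not called without control replicate 1 or control replicate 2 (both 0.20), nor with scaling by total counts only (0.10; edgeR adjusted p 0.215). COPS5 (0.15) was not called in 10 of 14 alternatives, including each fit without 1 library other than control replicate 3, with values from 0.12 to 0.16 in those fits. The number of this list called higher was 2 with scaling by total counts only, with DESeq2 and without control replicate 2, and 1 was called lower without TGF-β1 replicate 1.

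The other immediate early genes did not move as a group. Of 18 tested, 8 were called higher, 6 lower and 4 not (77.8%; median 0.32), and the number called lower was between 4 and 6 with 1 library left out. EGR2, a zinc finger factor, rose from 2.37 ± 0.265 to 39.7 ± 1.03 CPM (SD, n = 3). On the log2 scale it rose by 4.06 ± 0.09 (SE; adjusted p 2.3e-10 by edgeR). CCN2, the connective tissue growth factor gene, rose by 1.56. The nuclear receptor gene NR4A3 fell by 2.55 and the phosphatase gene DUSP5 by 0.82 on the log2 scale. EGR1, which is induced with FOS by serum, was not called (0.48; edgeR adjusted p 0.0646), though all its TGF-β1 libraries were above all control libraries. The 8 genes called higher include IER2 (0.75) and DUSP1 (0.56), and the 6 called lower include CCN1 (-0.78) and BTG2 (-0.63).

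Genes with known AP-1 sites in their regulatory regions were mostly higher. Of 22 tested, 18 were called higher, 2 lower and 2 not (90.9%; median 0.68), beside 44.3% of all genes tested. This list holds several TGF-β targets. IL11, a profibrotic cytokine, rose from 114 ± 8.60 to 716 ± 58.4 CPM (SD, n = 3), with 2.65 ± 0.08 (SE; edgeR adjusted p 1.4e-09). GJA1 rose by 2.07 and TGFB1 by 1.79 on the log2 scale. SPP1 and CD44, the 2 genes called lower and named here after their values were seen, had -1.02 and -0.26.

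**Figure D4:**
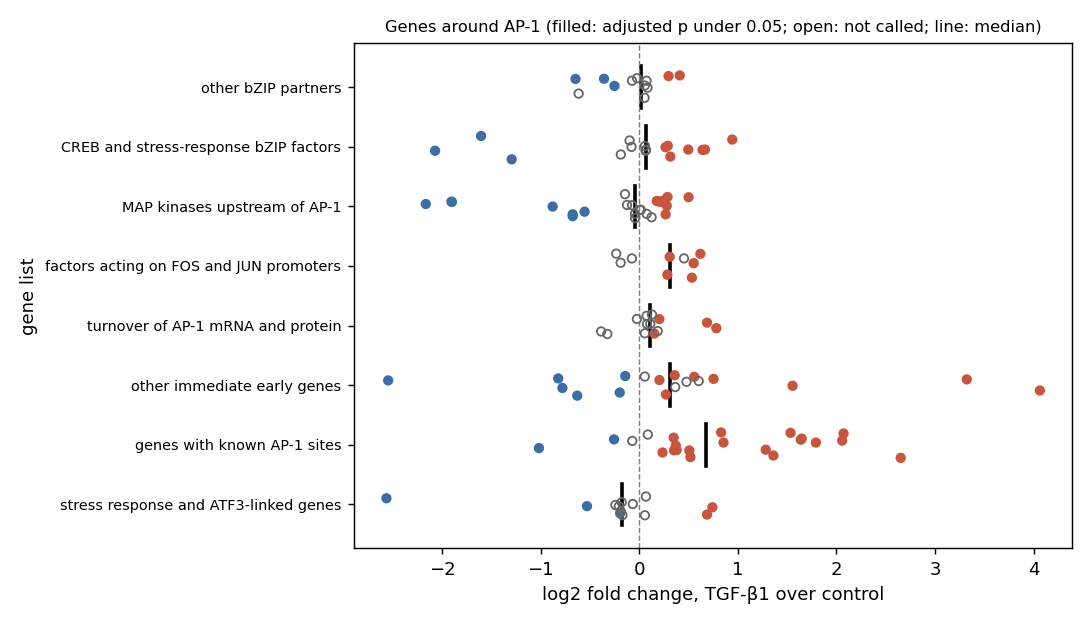
Log2 fold change, TGF-β1 over control, of the tested genes of 8 lists around AP-1. Filled points are called genes, red for higher and blue for lower, open points are not called, and the black line is the median of the list. The median is highest for genes with known AP-1 sites (0.68) and within 0.18 of 0 for 5 lists.

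Genes near the 9 members were examined within 50 kb, since reads of overlapping genes could be shared. There were 51 such entries, of which 21 were tested, 5 were called higher and 7 lower, beside 22.2% and 22.1% of all genes tested. The strand setting of the counting is not given in the sources used here. FLJ31356, antisense to FOSL2, had 8 control reads and 4 TGF-β1 reads beside 27601 and 23071 for FOSL2. JDP2-AS1 had 13 and 14 reads beside 652 and 428 for JDP2. The other genes did not overlap a member.

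The region around FOSL1 held 8 of the 21 tested neighbors, of which 4 were called lower and 1 higher, and no test of the region was made. CCDC85B (chr11:65890673-65891635, plus strand), whose end faces the end of FOSL1 at a distance of 414 bases, had 1685 control reads and 741 TGF-β1 reads (log2 fold change -1.20 ± 0.09, SE; adjusted p 1.3e-06 by edgeR). C11orf68 (chr11:65916810-65919062, minus strand) had 3036 and 1039 reads, with -1.56 ± 0.08 (edgeR adjusted p 8.1e-08). DRAP1 was called lower as well, at -0.82. LOC105369349 had 55 control reads and 2 TGF-β1 reads, which is a TGF-β1 to control ratio of 0.0360 with a 95% exact binomial interval from 0.00426 to 0.136, which covers counting error only. In the same region FIBP (0.00), MUS81 (0.01) and EFEMP2 (-0.73) were not called and CFL1 was called higher (0.49).

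**Figure D5:**
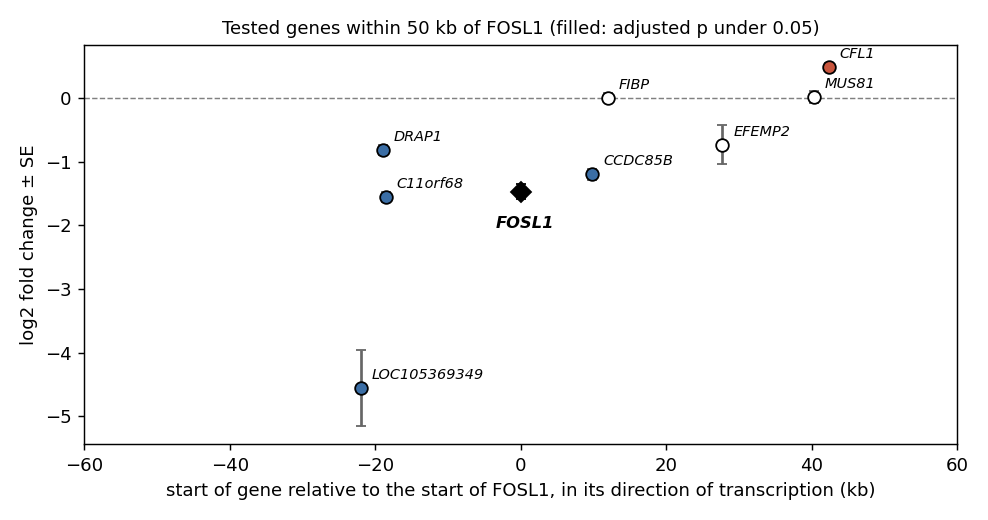
Log2 fold change ± SE of the tested genes within 50 kb of FOSL1, by the distance of their start from that of FOSL1 in kb along its direction of transcription. Filled points are called (blue lower, red higher) and open points are not. FOSL1 (-1.47), C11orf68 (-1.56), CCDC85B (-1.20) and DRAP1 (-0.82) are lower, and FIBP and MUS81 are at 0. The point of LOC105369349 (-4.55) rests on 2 reads after TGF-β1.

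Beside the other members, PDE4C, 31494 bases from JUND, had 9 control reads and 195 TGF-β1 reads (log2 fold change 4.37 ± 0.28, SE; adjusted p 3.7e-07 by edgeR). LOC105374382, near FOSL2, had 82 and 22 reads, with -1.90 ± 0.35 (edgeR adjusted p 0.00123). None of the tested genes within 50 kb of JUNB or FOSB was called 2-fold.

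The genes whose pattern over the 6 libraries was most like that of JUNB were PINK1, MRC2 and S1PR5, by the Pearson correlation of log2 CPM among 10711 genes of at least 5 CPM. The correlation was at least 0.9997 for each, and 709 genes were above 0.98. Their log2 fold changes were 0.77, 0.98 and 2.68. For FOSL1 the most alike genes were WNT7B (-1.47), NRBP2 (-0.65) and S1PR1 (-2.06), each with a correlation of 0.999, and 313 genes were above 0.98. The points are 2 groups of 3 libraries, so these correlations mostly describe the difference between groups.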

How the data were processed

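RNA was measured by poly(A) RNA-seq (oligo(dT) capture, random hexamer priming, paired-end reads) in 3 control and 3 TGF-β1 libraries, grouped by the treatment in their labels. Reads with adapters or of low quality were removed by the authors. The submitters' processing notes name CASAVA, featureCounts 2.0.1, DESeq2 1.16.1 and hg38, with no role. The aligner and the strand setting are not given in the sources used here. The deposited tables give raw counts per gene, and TPM computed by the authors from counts and gene length. Deposited FPKM was not used.

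Each table listed 42095 entries, of which 598 had no gene name. These held 0.396% to 0.464% of counts and were left out. Records broken over lines, 7 per file, were rejoined.

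Counts were tested with edgeR 4.0.16 (quasi-likelihood F test, robust; TMM; filterByExpr with a minimum count of 10) in R 4.3.3, with Benjamini-Hochberg adjustment. SE was the size of the log2 fold change divided by the square root of F. CPM used TMM-scaled library sizes. The fits were run on simulated counts with the same spread for every gene and few changed genes. That setting is simpler than these data, so it does not bear on the calls given here. Alternatives were RLE factors, total counts only, DESeq2 1.42.0, limma-voom (limma 3.58.1), 2 other count filters, a replicate block, entries of a name summed, and each library left out.

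The members and gene lists were chosen with earlier results of these data known. Named were the 9 members, COL1A1 as a check, up to 4 called genes per list with the largest change and a mean of at least 1 CPM, the 3 genes most like JUNB and FOSL1, and neighbors within 50 kb called 2-fold. COL1A1 rose by 3.30 ± 0.06 (SE; edgeR adjusted p 7.2e-11). Other genes named without a call were chosen for their role. DRAP1, CFL1, FIBP, MUS81, EFEMP2, MAPK9, IER2, DUSP1, CCN1 and BTG2 were named after their values were seen. Some genes that the rule takes are not reported here. Sequences are from RefSeq.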

Additional observations from a re-analysis of the deposited data

How the results depend on the processing

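The calls of the 9 genes kept their side of the threshold in every alternative. Of 125 values, 124 kept their direction, and JUN, which was not called, turned to 0.016 without control replicate 1 (-0.10 to 0.02 with 1 library left out). FOS, with its low counts, could not be fitted at a mean of at least 50 counts. Of 447 values for the 32 genes that the naming rule took from the lists, 430 kept their call and 17 lost it (COPS5, TRIB2, ZFP36L1 and MAF). The other named genes were not compared across the alternatives. Among them are COL1A1, the neighbors and the genes most like JUNB and FOSL1. Family shares were the same with TMM-scaled counts per length, by construction. This does not hold for the family sums, which are in TPM without TMM scaling.

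Counts over all genes and lists moved more. With total counts only, 2134 genes were called higher in place of 3294 and 31.7% of calls were higher in place of 50.05%. In the same setting, 1 other zipper partner was higher (2 with TMM), 6 CREB and stress-response factors were lower (3), 2 MAP kinases were higher (7), 2 factors of the FOS and JUN promoters were lower (0), 2 turnover genes were higher (4) and 2 lower (0), and 6 stress response and ATF3-linked genes were lower (3). The number of promoter factors called lower was also 2 with DESeq2, with all genes that had a count, at a mean of at least 50 counts and with the replicate block. DESeq2 called 2 turnover genes higher. At a mean of at least 50 counts, 2 turnover genes were higher, 1 was lower and 5 stress response and ATF3-linked genes were lower. With 1 library left out, the number called was 4 to 7 for MAP kinases (higher), 0 to 2 for promoter factors (lower), 2 to 4 for turnover genes (higher), 0 to 1 for turnover genes (lower) and 2 to 7 for stress response and ATF3-linked genes (lower), and over all genes 2646 to 3545 higher and 2687 to 3651 lower. The cause was not tested.

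The replicate block was an alternative only. Same-numbered libraries of the groups had correlations of -0.01 to 0.11 in their deviations, and differently numbered ones -0.15 to 0.09. By their labels they share only a replicate number. With 3 libraries per group, these correlations cannot decide whether same-numbered libraries were paired. With the replicate block the 9 genes kept 8 calls, with JUNB at 3.07 and FOSL1 at -1.48, and 3396 genes were higher over all. Among the 9 genes FOS is the one that depth limits most, with 29 to 67 reads per library.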
